A study of Mus musculus with 2 samples.

Results

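Mink1, Casp2 and Zwint are 3 mouse genes that each had a transcript among the highest ratios between the telomere isolate and its control. Every transcript listed under these symbols was taken, which gave 17 of 48876 transcripts, 7 for Mink1, 5 for Casp2 and 5 for Zwint. RNA was isolated by enChIP, in which a tagged DNA-binding protein is immunoprecipitated together with crosslinked, sonicated chromatin. The cells were Ba/F3, a mouse hematopoietic cell line labelled strain C3H, stably expressing either 3xFN-Tel-TAL, a FLAG-tagged TAL protein that recognizes telomeric repeats, or 3xFNLDD, a FLAG-tagged LexA protein used as control. Both groups were crosslinked with formaldehyde and precipitated with the anti-FLAG M2 antibody, no drug or time course entered the comparison, and whether either line was a single clone is not given in the sources used here. There was 1 library per group, each made from 60 ng of RNA. The paper names larger and unequal amounts of purified RNA as sent for sequencing, with more for 3xFNLDD than for 3xFN-Tel-TAL.

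The 3xFNLDD library held 7206183 reads and the 3xFN-Tel-TAL library 9774844 reads, and 3 reads corresponded to 0.416 and 0.307 RPM (reads scaled to the library total). Reads were concentrated, since 11 transcripts above 1% of either library held 84.8% and 81.1% of them. Of the 11 blood cell markers analysed, 5 had 20 or more reads over both libraries, and Csf2rb, the shared signalling chain of the IL-3 receptor, had 583 and 1052 reads. The early B cell markers Vpreb1, Igll1, Dntt and Cd79a had at most 4 reads in either library. In all, the blood cell markers had 1584 and 2529 reads, and 14 markers of other cell types had 146 and 147. Of these 14, 4 had 20 or more reads over both libraries. The endothelial marker Pecam1 had the most, 39 and 67, much like the blood cell marker Ptprc with 44 and 67. With 1 library per group no test of the conditions is possible and there is no replicate check. Every log2 ratio below is RPM in 3xFN-Tel-TAL over RPM in 3xFNLDD, with an exact 95% Clopper-Pearson interval that covers counting error only and compares these libraries, not the conditions. In these bulk isolates, more cells holding an RNA and more of it per cell cannot be told apart, and RNA from before the immunoprecipitation was not analysed here.

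The products of the 3 genes work in different places. Mink1 (misshapen-like kinase 1) is a serine/threonine kinase of the Ste20 group, in the germinal centre kinase branch, and is known for signalling to JNK and to the actin cytoskeleton. Casp2 (caspase 2) is an initiator caspase that is activated on the PIDDosome, a platform built from PIDD1 and CRADD, and it cleaves BID and MDM2. Zwint (ZW10 interactor) is a kinetochore protein that binds KNL1 and helps to bring the ROD-ZW10-Zwilch (RZZ) complex to kinetochores in mitosis. In each gene the transcript with the most 3xFN-Tel-TAL reads is called the lead transcript here.

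The lead transcripts differed in kind. The Mink1 lead, ENSMUST00000142650, is annotated as a processed transcript of 693 nt with 3 exons, at 70423240 to 70424211 of chromosome 11 (NCBIM37, forward strand). No coding sequence is annotated on it. Its first exon begins inside the intron between exons 22 and 23 of the coding transcript ENSMUST00000072237, so that 340 of its 693 bases lie outside the exons of every annotated coding Mink1 transcript. The first 313 of these bases, from 70423240 to 70423552, belong to none of the other 13 annotated Mink1 transcripts. The first 300 of them are printed because they are the part of the gene that only the lead transcript holds. Capitals mark the unit GACCCTGTCAGA, the longest run found 3 times in this stretch.
Mink1 ENSMUST00000142650, chr11:70423240-70423539, forward strand: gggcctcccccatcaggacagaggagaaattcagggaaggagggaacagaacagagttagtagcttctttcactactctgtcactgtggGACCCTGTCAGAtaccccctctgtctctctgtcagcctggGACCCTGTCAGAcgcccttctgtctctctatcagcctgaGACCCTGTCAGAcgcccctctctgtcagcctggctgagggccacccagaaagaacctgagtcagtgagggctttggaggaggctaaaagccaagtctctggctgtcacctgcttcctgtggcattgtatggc

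On the transcribed strand, that 12-nt unit occurs at least once in 0.0174% of the 45887 annotated transcripts and 3 times in 1, which is the Mink1 lead itself. The telomeric hexamer, searched as TTAGGG and CCCTAA, is not in the Mink1 lead, and 16.4% of the 7267 transcripts within 20% of its length hold it. No stretch of at least 50 nt of the lead matched a transcript of another gene at 90% identity or more.

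The Casp2 lead, ENSMUST00000031895, is the protein-coding transcript, with 11 exons and 3529 nt, 1356 nt of them coding, on the forward strand of chromosome 6 from 42214984 to 42232507. The other Casp2 transcript with at least 20 reads, ENSMUST00000139930, is annotated as a retained intron of 3325 nt that reads through the ends of exons 1 and 2 into the introns. The 2 transcripts share 638 bases, which is 18.1% of the lead. The sequences at the end of exon 1 show where they part, with capitals for what follows exon 1 in each transcript.
Casp2 ENSMUST00000031895, exon 1 to exon 2, chr6:42215167-42217527 with the intron removed: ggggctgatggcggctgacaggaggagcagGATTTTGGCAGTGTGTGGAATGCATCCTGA
Casp2 ENSMUST00000139930, exon 1 into the intron, chr6:42215167-42215226: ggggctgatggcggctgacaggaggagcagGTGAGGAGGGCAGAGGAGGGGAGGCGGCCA

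The Zwint lead, ENSMUST00000020081, is protein-coding with 8 exons and 1834 nt, on the forward strand of chromosome 10 from 72117593 to 72137712. The next transcript by reads, ENSMUST00000105431, has 2676 nt and the same coding sequence of 756 nt, and their last exons differ, at 999 nt in the lead and 1891 nt in the other. The 55 bases across the last splice junction are shown because they separate the pair, with capitals for the first bases of the last exon.
Zwint ENSMUST00000020081, exon 7 to exon 8, chr10:72120107-72136738 with the intron removed: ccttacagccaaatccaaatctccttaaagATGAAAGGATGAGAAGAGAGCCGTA
Zwint ENSMUST00000105431, exon 7 to exon 8, chr10:72120107-72130671 with the intron removed: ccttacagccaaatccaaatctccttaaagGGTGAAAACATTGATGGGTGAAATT

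Neither Casp2 nor Zwint transcripts matched another gene over 50 nt, and the hexamer is in neither lead. Among transcripts of like length it is held by 59.8% for Casp2 and 38.4% for Zwint.

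The lead held more of the Mink1 reads in 3xFN-Tel-TAL than in 3xFNLDD, and the coding transcript held fewer. The lead had 15 control reads (2.08 RPM) against 272 reads (27.8 RPM) in 3xFN-Tel-TAL, so that the log2 ratio was 3.74 (95% interval 2.99 to 4.598). The coding transcript ENSMUST00000072237, of 4994 nt, had 81 reads (11.2 RPM) and 216 reads (22.1 RPM), for a log2 ratio of 0.98 (95% interval 0.60 to 1.36). In 3xFNLDD the coding transcript thus had more reads than the lead, and in 3xFN-Tel-TAL it had fewer. Per length, the levels in 3xFNLDD were 3.00 RPM per kb for the lead and 2.25 RPM per kb for the coding transcript. In 3xFN-Tel-TAL they were 40.2 and 4.42 RPM per kb.

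The share of Mink1 reads on the lead does not depend on the scaling between libraries. It was 13.2% of 114 reads in 3xFNLDD (exact 95% Clopper-Pearson interval 7.56% to 20.8%) and 52.3% of 520 reads in 3xFN-Tel-TAL (47.9% to 56.7%). The coding transcript went from 71.1% (61.8% to 79.2%) to 41.5% (37.3% to 45.9%). The intervals do not overlap for either transcript, but the gene was chosen for the lead's ratio, which makes this a description.

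**Figure D1:**
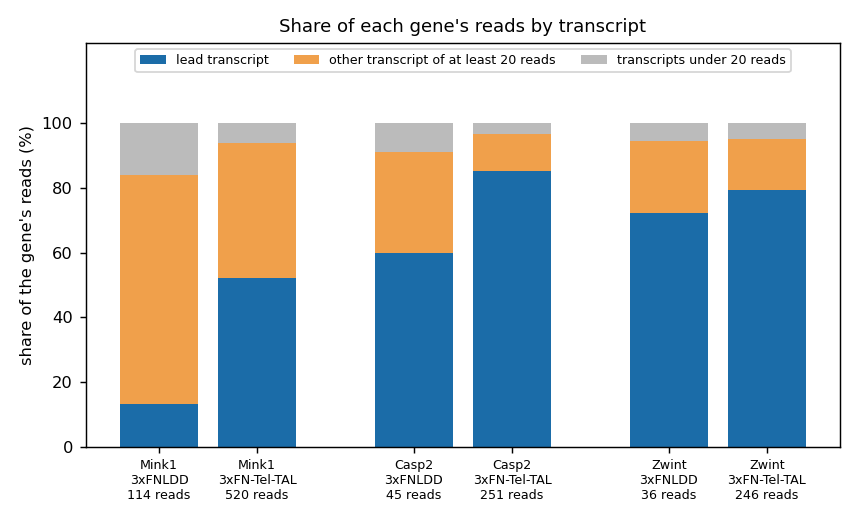
Stacked bars give, for each gene and library, the percentage of the gene's reads on the lead transcript, on the other transcript of at least 20 reads and on the remaining transcripts, with the gene's reads under each bar. Between the control and 3xFN-Tel-TAL the lead goes from 13.2% to 52.3% of Mink1 reads, from 60.0% to 85.3% of Casp2 reads, and from 72.2% to 79.3% of Zwint reads.

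The other 5 Mink1 transcripts had under 20 reads each. ENSMUST00000132208, a processed transcript that starts 313 nt downstream of the lead's start and overlaps its 3 exons, had 7 and 9 reads, for a log2 ratio of -0.08 (95% interval -1.67 to 1.58). The processed transcript ENSMUST00000152857, further upstream, had 6 and 9 reads (0.15, 95% interval -1.51 to 1.92). The coding transcript ENSMUST00000072873 had 4 and 10 reads, ENSMUST00000149845 had 0 and 3, and ENSMUST00000079244 had 1 in each library. Added up, these 5 had 18 and 32 reads, for a log2 ratio of 0.39 (95% interval -0.49 to 1.31), which lies below the interval of the lead.

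**Figure D2:**
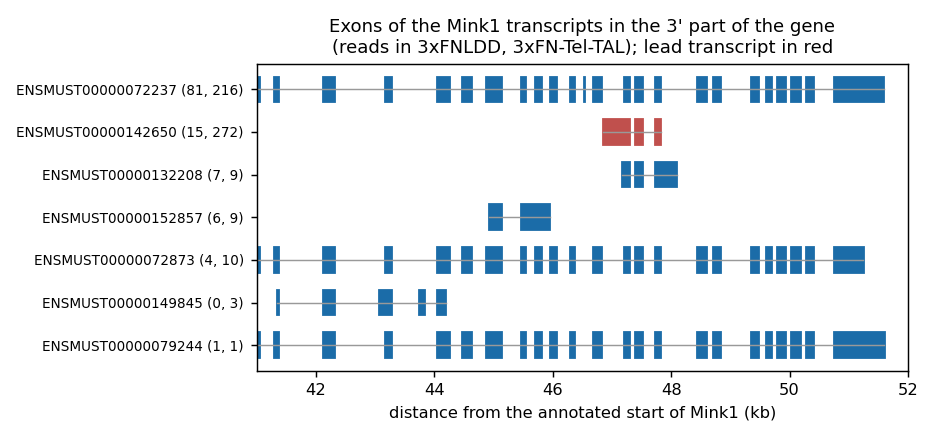
Boxes are exons of the 7 Mink1 transcripts in the 3′ part of the gene against distance from the annotated gene start in kb, with the control and the 3xFN-Tel-TAL reads in brackets. The lead, in red with 15 and 272 reads, begins in the intron between exons 22 and 23 of the coding transcript in the top row and shares 350 of its 693 bases with it.

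Since 350 bases of the lead are also exons of the coding transcript, reads from them fit both, and how such reads were assigned is not given in the sources used here. The library kit does not mark strand, and the antisense gene Gm12316 lies within Mink1, but it starts downstream of the lead's end and had 2 and 3 reads.

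The Casp2 lead had 27 control reads (3.75 RPM) against 214 reads (21.9 RPM) in 3xFN-Tel-TAL, so that the log2 ratio was 2.55 (95% interval 1.97 to 3.18). The retained intron transcript ENSMUST00000139930 had 14 reads (1.94 RPM) and 29 reads (2.97 RPM), for a log2 ratio of 0.61 (95% interval -0.36 to 1.64). The transcript with the high ratio was thus the spliced coding form in Casp2 and a form with some intron sequence in Mink1. The choice of the leads fixed this, so it is a description. Counts are per transcript, and which part of the Mink1 lead held the reads was not tested. Reads from the 638 bases that the Casp2 pair shares fit both, and their assignment is not given either. The interval of the retained intron transcript includes 0 and lies wholly below that of the lead.

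The share of Casp2 reads on the lead was 60.0% of 45 reads in 3xFNLDD (44.3% to 74.3%) and 85.3% of 251 reads in 3xFN-Tel-TAL (80.3% to 89.4%). The retained intron transcript held 31.1% (18.2% to 46.6%) and 11.6% (7.88% to 16.2%). Per length the lead had 1.06 RPM per kb in 3xFNLDD and 6.204 RPM per kb in 3xFN-Tel-TAL, against 0.584 and 0.892 RPM per kb for the retained intron transcript. The remaining 3 Casp2 transcripts had 4 and 8 reads together. They were ENSMUST00000132398 with 4 and 2 reads, ENSMUST00000141669 with 0 and 4, and ENSMUST00000141727 with 0 and 2. The intron between exons 7 and 8 of the Casp2 lead, outside the retained intron transcript, holds a C/D box snoRNA gene annotated as SNORD88, a class of small RNA that guides RNA methylation, which had 1 and 4 reads (log2 ratio 1.56, 95% interval -1.78 to 7.18).

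Both main Zwint transcripts had high ratios. The lead had 26 control reads (3.61 RPM) against 195 reads (19.9 RPM) in 3xFN-Tel-TAL, so that the log2 ratio was 2.47 (95% interval 1.87 to 3.12). ENSMUST00000105431 had 8 reads (1.11 RPM) and 39 reads (3.99 RPM), for a log2 ratio of 1.85 (95% interval 0.73 to 3.15). These intervals overlap, so a difference between the 2 transcripts was not detectable at this depth. The counts are per transcript, and the last exons were not compared by themselves. The pair shares 785 bases, which is 42.8% of the lead, and reads from these bases fit both.

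The lead held 72.2% of 36 Zwint reads in 3xFNLDD (54.8% to 85.8%) and 79.3% of 246 reads in 3xFN-Tel-TAL (73.7% to 84.2%), so that the shares overlap as well. Per length it had 1.97 and 10.9 RPM per kb, against 0.415 and 1.49 RPM per kb for the other transcript. Of the 3 transcripts under 20 reads, the retained intron ENSMUST00000160128 had 0 and 8 reads, and its log2 ratio had a lower 95% bound of 0.33. ENSMUST00000163046 had 2 reads in each library, and ENSMUST00000159549 had 0 and 2.

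Summed over all transcripts, each gene was above 1.4-fold, beside 41.1% of the 12517 gene sums with at least 20 reads. The study used 1.4 for its list of non-coding RNAs, on a ratio it describes as read counts over read counts. Here 1.4 is set on RPM ratios of all RNAs, so the measure and the set differ. The leads that chose the genes are part of these sums. Mink1 had 114 control reads (15.8 RPM) against 520 reads (53.2 RPM) in 3xFN-Tel-TAL, so that the log2 ratio was 1.75 (95% interval 1.45 to 2.06). Casp2 had 45 reads (6.24 RPM) and 251 reads (25.7 RPM), for a log2 ratio of 2.04 (95% interval 1.58 to 2.53). Zwint had 36 reads (4.996 RPM) and 246 reads (25.2 RPM), for a log2 ratio of 2.33 (95% interval 1.82 to 2.88). The order of the gene sums was therefore the reverse of the order of the lead transcripts. The gene sum intervals overlap for every pair of the 3 genes.

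Without the lead, the Mink1 sum was 99 and 248 reads, for a log2 ratio of 0.89 (95% interval 0.54 to 1.24), and the Casp2 sum was 18 and 37 reads, 0.60 (95% interval -0.25 to 1.4995). The Zwint sum without its lead was 10 and 51 reads, 1.91 (95% interval 0.92 to 3.05). Without its lead, the interval of Casp2 thus included 0. In Mink1 and Zwint the interval lay above 0 and above 1.4-fold. With TMM scaling, which moves every log2 ratio by -0.37, the lower bound for Mink1 was 0.17, above 0 but under 1.4-fold, and that for Zwint was 0.55.

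**Figure D3:**
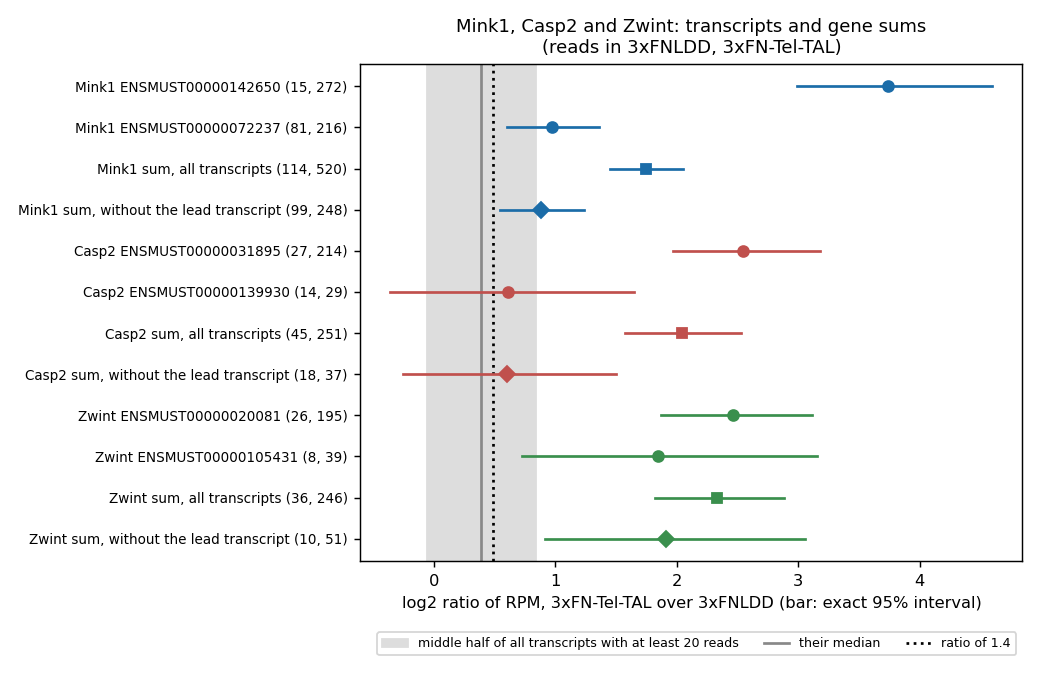
Points are log2 ratios of RPM (circles for transcripts of at least 20 reads, squares for gene sums, diamonds for sums without the lead transcript) and bars are exact 95% intervals, with the control and the 3xFN-Tel-TAL reads in brackets. The grey band is the interquartile range of all transcripts with at least 20 reads, around a median of 0.39, and without its lead the Casp2 sum falls to 0.60 with an interval that includes 0.

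The leads were chosen by these ratios, so their place is a description. Among the 2473 transcripts with 200 or more reads over both libraries, the leads ranked 2 (Mink1), 3 (Casp2) and 5 (Zwint). The transcript just outside was Prkar1a at rank 6, a regulatory subunit of protein kinase A, with 42 and 306 reads and a log2 ratio of 2.43. Ranks 1 and 4 were Chd7 (4.45) and Scarna6 (2.52). Of these 2473 transcripts, 39.6% were above 1.4-fold and 7.72% below 1/1.4-fold. Among the 3065 gene sums with at least 200 reads, Zwint ranked 4, Casp2 ranked 18 and Mink1 ranked 50.

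Of the 17 transcripts, 6 had 20 or more reads over both libraries, and all 6 were above 1.4-fold, beside 44.2% of the 16468 transcripts of that depth in the whole table. For 5 of the 6 the lower bound was also above 1.4-fold, the exception being the Casp2 retained intron. With TMM scaling it was 3 of the 6, which were the leads. Below 1/1.4-fold were 11.1% of transcripts in the table. The median log2 ratio over the table was 0.39. The other 11 members had under 20 reads, and since this contrast chose the genes, nothing is read from the count.

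The transcript classes of the members had like medians over the whole table at 20 or more reads. Among transcripts with at least 20 reads, the median log2 ratio was 0.38 for 1080 processed transcripts, 0.43 for 2061 retained introns and 0.40 for 11031 protein-coding transcripts. Other classes differed more, from 0.07 for 194 long intergenic non-coding RNAs to 0.93 for 76 snoRNAs. With at least 200 reads, the median was 0.23 for 114 processed transcripts and 0.43 for 1715 protein-coding transcripts. In 1728 genes with at least 20 reads on both a coding and a non-coding (processed or retained intron) transcript, the non-coding transcript with the most reads was higher in 51.4%. In Mink1 the non-coding transcript was the higher one, and in Casp2 the coding one, as the choice of the leads fixed.

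The gap between the highest and lowest transcript log2 ratio within a gene was 2.77 in Mink1 (95% interval 1.91 to 3.70 from the conditional odds ratio of the read counts), a 6.80-fold difference. It was 1.94 in Casp2 (95% interval 0.72 to 3.10), a 3.83-fold difference, and 0.62 in Zwint (95% interval -0.84 to 1.94). The median gap over 3005 genes with 2 or more transcripts of at least 20 reads was 0.79. The intervals of the highest and lowest transcript lay apart in 11.8% of the 3005 genes, and in 17.2% of the 384 where the highest transcript had at least 200 reads. They lay apart in Mink1 and Casp2 and not in Zwint. Each gap holds the lead ratio that chose the gene, so these values are a description.

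**Figure D4:**
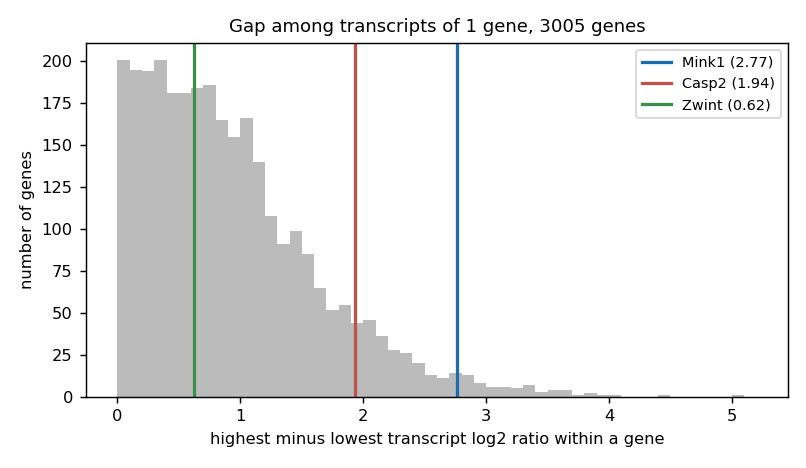
The histogram counts genes by the difference between the highest and lowest transcript log2 ratio, over 3005 genes with 2 or more transcripts of at least 20 reads. Lines mark Zwint at 0.62, below the median of 0.79, Casp2 at 1.94 and Mink1 at 2.77.

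Genes with a gap like that of Mink1 and Casp2 over the 2 libraries were sought. At least 200 reads at 4-fold or more were needed on 1 transcript. Another transcript needed at least 20 reads and an interval wholly below that of the first. Mink1 and Casp2 meet these conditions, and Zwint does not, since its intervals overlap. Besides the members there were 6 such genes, and the 3 with the largest gap were Rcc2, Chd7 and Lcp1. Rcc2, a regulator of mitotic spindle assembly, had a transcript at 2.04 (317 and 1764 reads) and another at -2.02 (15 and 5 reads). Chd7, a chromatin remodeler, had 4.45 (18 and 534 reads) and 0.75 (7 and 16 reads). Lcp1, an actin-bundling protein of blood cells, had 2.19 (37 and 229 reads) and -0.06 (438 and 571 reads).

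Genes next to the members on the chromosome had few reads or ratios below the Mink1 sum. Of 17 annotated genes within 50 kb of Mink1, 14 were analysed and 8 had at least 20 reads. Of these 8, 4 were above 1.4-fold and 1 was below 1/1.4-fold. Over all gene sums of that depth, 41.1% were above and 11.5% below. Rnf167, a ubiquitin ligase, had the most reads among those above, with 92 and 219 reads (log2 ratio 0.81). Eno3, the muscle form of enolase, had the highest at 1.30 from 6 and 20 reads (95% interval -0.07 to 2.90). Pld2, a phospholipase D gene that ends 4771 bases upstream of Mink1, had 53 and 59 reads (-0.29, 95% interval -0.85 to 0.28). All 8 values lay below the Mink1 sum, though the interval of Eno3 includes it. That sum holds the lead that chose the gene. Without the lead it was 0.89 (95% interval 0.54 to 1.24), which is below Eno3 and near Rnf167. Chrne, 400 bases downstream of Mink1, had under 20 reads, 0 and 8, so that its lower 95% bound was 0.33. Around Casp2, none of 5 genes analysed within 50 kb had 20 reads, and Tmem139, 430 bases upstream, had 4 and 0. Around Zwint the annotation holds no other gene within 50 kb.

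The kinases related to Mink1 had lower ratios than the Mink1 sum, which holds the lead that chose the gene. Of 7 genes in the germinal centre kinase list, 4 had at least 20 reads, of which none was above 1.4-fold and 1, Map4k1, was below 1/1.4-fold (27 and 22 reads, log2 ratio -0.74). The background is 41.1% of 12517 gene sums above and 11.5% below. Map4k2 had the most reads, 76 and 96 (-0.10, 95% interval -0.55 to 0.35). Map4k4 and Tnik, the closest relatives of Mink1, had under 20 reads and so stand outside these counts. Map4k4 had 9 and 2 reads (95% interval of the log2 ratio -5.86 to -0.34), and Tnik had 6 and 0 (95% upper bound -0.68), so that both intervals lay below 0. The median of the 4 was -0.19, beside 0.37 for all gene sums.

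In the JNK cascade, 4 of 10 genes with at least 20 reads were above 1.4-fold and 0 below. Map2k7, a kinase that activates JNK, had 83 and 330 reads, for a log2 ratio of 1.55 (95% interval 1.2002 to 1.92). Mapk9, which encodes JNK2, had 36 and 95 reads (0.96, 95% interval 0.39 to 1.56). Those with the lowest ratios were Map3k5 (0.00) and Map3k4 (0.07), kinases further up the cascade. The scaffold gene Mapk8ip3 had the most reads, 237 and 403 (0.33, 95% interval 0.09 to 0.56). The other 2 above 1.4-fold were Map3k1 (1.38) and Map2k4 (0.70). The share above 1.4-fold was thus close to the background, with a median of 0.42.

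STRIPAK is a phosphatase complex that binds Ste20 kinases of the germinal centre branch. Of 12 of its genes with at least 20 reads, 5 were above 1.4-fold and 0 below, beside 41.1% of all gene sums above. The median was 0.37, like that of all gene sums. Ppp2r1a, the scaffold subunit of protein phosphatase 2A, was at 1.02 (35 and 96 reads) and the striatin gene Strn at 0.78 (49 and 114 reads). Stk24 (0.92) and Ppp2ca (0.64) were above as well. Slmap (-0.15) and Strn4 (0.08, the most reads with 265 and 381) were lowest among genes with at least 100 reads.

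Of the other caspases, 4 of 5 genes with at least 20 reads were above 1.4-fold and 0 below, with a median of 0.86. Among all gene sums of that depth, 41.1% were above and 11.5% below. Casp9, the initiator caspase of the apoptosome, had 22 and 83 reads, for a log2 ratio of 1.48 (95% interval 0.78 to 2.23). Also above were Casp4, an inflammatory caspase (9 and 27 reads, 1.15), and Casp8, the initiator at death receptors (26 and 64 reads, 0.86). The intervals of Casp4 and Casp8 had lower bounds of 0.01 and 0.18, which are under 1.4-fold.

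Among caspase-2 activators, substrates and apoptosome genes, 5 of 10 with at least 20 reads were above 1.4-fold and 0 below, with a median of 0.53. The background share above was 41.1%. Bak1, a pore-forming protein of the mitochondrial outer membrane, had 12 and 88 reads, for a log2 ratio of 2.43 (95% interval 1.56 to 3.44), which is in the range of the Casp2 lead. Mdm2, a caspase-2 substrate and ubiquitin ligase for p53, had 52 and 144 reads (1.03, 95% interval 0.56 to 1.52). Trp53, which encodes p53, had the most reads, 110 and 224 (0.59). The other 2 above were Bid (0.71) and Cycs (0.66). The PIDDosome gene Lrdd, the symbol used in the table for PIDD1, had 106 and 180 reads (0.32), Apaf1, the core of the apoptosome, had 103 and 179 (0.36), and the adaptor Cradd had 5 and 10 reads.

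The kinetochore genes that work with Zwint had ratios below its gene sum. That sum holds the lead that chose the gene, so this order is a description. The intervals of Pmf1, Spdl1, Mad2l1 and Bub3 include the Zwint sum. In the KNL1-MIS12-NDC80 network, the outer kinetochore complex that binds microtubules, 3 of 8 genes with at least 20 reads were above 1.4-fold and 0 below. Their median was 0.44, and the background share above was 41.1%. Casc5, which encodes KNL1, the binding partner of Zwint, had 178 and 251 reads, a log2 ratio of 0.06. Spc24, a subunit of the NDC80 complex, had the most reads, 385 and 655 (0.33, 95% interval 0.14 to 0.51). Nsl1 of the MIS12 complex was at 0.44 (208 and 382 reads) and Dsn1 at 0.27. The 3 above, each with under 100 reads, were Pmf1 (6 and 33 reads, 2.02), Mis12 (0.90) and Nuf2 (0.86).

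In the list of the RZZ complex and the kinetochore corona, 4 of 8 genes were above 1.4-fold and 1 below, with a median of 0.29 that was -0.08 with TMM scaling. Zw10, for which Zwint is named, had 16 and 32 reads (0.56). Spdl1, the dynein adaptor, had 8 and 37 reads (1.77), Ndel1 had 20 and 72 (1.41), and Nde1 had 29 and 59 (0.58). Kntc1, which encodes ROD, had 63 and 61 reads (-0.49, 95% interval -1.02 to 0.04) and was the one below 1/1.4-fold. Zwilch was at 0.02, and the large corona proteins Cenpe and Cenpf were at -0.34 (83 and 89 reads) and -0.29 (84 and 93 reads). In the spindle checkpoint, 5 of 8 genes were above 1.4-fold and 0 below, with a median of 0.58 that was 0.21 with TMM scaling. Beside both lists, 41.1% of all gene sums with at least 20 reads were above 1.4-fold and 11.5% below. Bub3 was highest among those with at least 100 reads (22 and 93 reads, 1.64, 95% interval 0.96 to 2.38), followed by Mad1l1 (0.81). Aurkb, the Aurora B kinase, had the most reads, 58 and 124 (0.66), and Bub1b had 38 and 73 (0.50). The other gene above 1.4-fold was Mad2l1 (14 and 50 reads, 1.397).

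Over the 8 lists, 30 of 65 genes with at least 20 reads were above 1.4-fold (46.2%) and 2 below, with a median of 0.43, close to the background. TMM scaling moved the median of every list by -0.37, as it did every log2 ratio. Of these 65, Bak1 (2.43) had a gene sum above those of all 3 members, and Pmf1 (2.02) and Spdl1 (1.77) lay above that of Mink1.

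**Figure D5:**
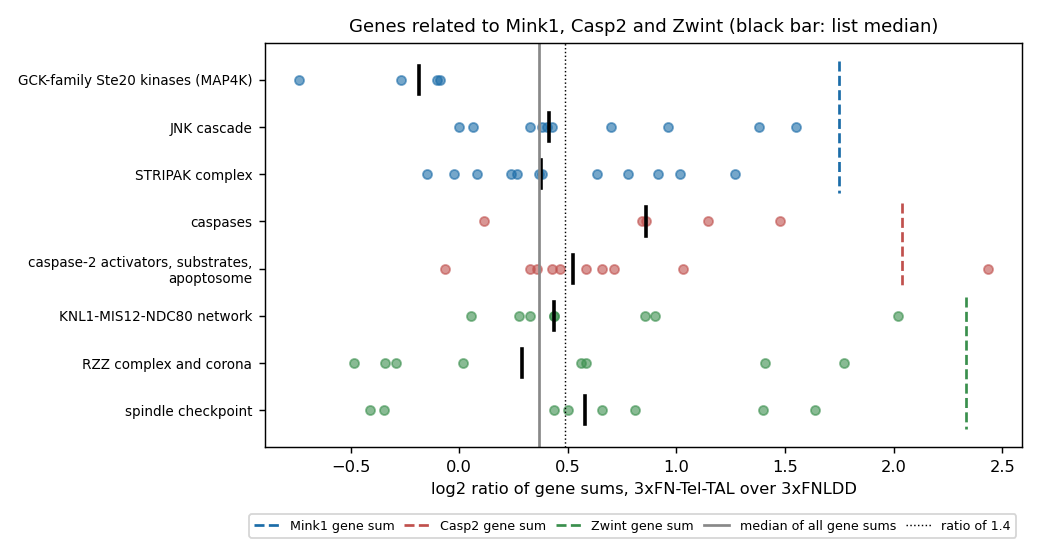
Each dot is the log2 ratio of a gene sum with at least 20 reads in 1 of 8 lists of related genes, black bars are list medians, dashed lines are the gene sums of Mink1 (1.75), Casp2 (2.04) and Zwint (2.33), and the grey line is the median of all gene sums, 0.37. The germinal centre kinases sit between -0.74 and -0.09, left of that line, and Bak1 at 2.43 lies furthest right.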

How the data were processed

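RNA from enChIP isolates of Ba/F3 cells was sequenced in 2 libraries. The authors deposited a raw read count per Ensembl transcript. The deposited RPM is the count scaled to the library's summed count, and recomputing it gave the same values to within 4.75e-05. Per the labels, the submitters' processing notes name cutadapt and the builds GRCm38 and mm10. The aligner, the annotation release and the treatment of reads that fit several transcripts are not given in the sources used here. The tables were joined on Ensembl ID and the groups taken from the sample titles. The members and the lists of related genes were chosen with earlier results of these data known.

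Log2 ratios with exact Clopper-Pearson intervals used the read counts and the summed counts of each library (Python 3.11.15, pandas 2.3.3, numpy 2.4.6, scipy 1.17.1, with plots by matplotlib 3.10.9). No molecular identifiers were used, so PCR copies count as reads, and intervals and limits cover counting error only. A gene sum adds all transcripts of a symbol. Genes without reads in 1 library have no ratio, and 31 transcripts with at least 20 reads were left out of the gaps for that reason. The medians over all transcripts place them at the ends of the order. Positions, exons and sequences came from GENCODE M1 on NCBIM37, which holds 45887 of the transcripts, all 17 members included. The other 2989 have no position here, and its coordinates are not those of GRCm38. Motifs were counted on both strands for the hexamer and on the transcribed strand for the 12-nt unit. Similar transcripts were sought with BLAST 2.17.0 among annotated transcripts of other genes. In the coding Mink1 transcripts, stretches of 296 bases in all matched 55 other genes.

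The rule for named genes took all member transcripts. From each list came the gene of most reads, with the 2 lowest and 2 highest gene sums among those of 100 or more reads. It also took up to 3 genes of like gap, rank neighbours and genes within 50 kb. Other genes are named only to account for a count of at most 5 or as direct partners or relatives of a member, and were chosen after their values were seen. A few genes of the lists are counted but their values are not reported here.

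Simulated data for the transcript ratios were made from the mean shares and totals, with 200 transcripts changed 4-fold. Of 16447 intervals, 96.2% held the true ratio. With at least 20 reads, 100% of 99 raised and 100% of 99 lowered transcripts were past 1.4-fold. The simulated counts held counting error only, as the interval assumes. The result therefore checks the calculation and does not bear on variation between libraries or on PCR copies. The alternatives tried included scaling by TMM (R 4.3.3, edgeR 4.0.16, transcripts with at least 10 reads), totals without transcripts above 1%, a pseudocount of 1, other minimum counts, thresholds and transcript sets.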

Additional observations from a re-analysis of the deposited data

How the results depend on the processing

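No paired analysis was possible because each group holds a single library, which also means that leaving out a library leaves no comparison. TMM scaling shifted every log2 ratio by -0.37 and totals without transcripts above 1% by -0.32. The 6 member transcripts with at least 20 reads and the gene sums kept their direction under every alternative, and 5 of the 6 were above 1.4-fold under either scaling, the exception being the Casp2 retained intron. Lower bounds under these scalings were added after seeing the data. With either of them, 3 in place of 5 of the 6 had a lower bound above 1.4-fold, and the bound of the Mink1 sum without its lead went from 0.54 to 0.17 (TMM) and 0.23 (without the dominant transcripts). The Mink1 gene sum was 1.38 with TMM scaling, 1.43 without the dominant transcripts and 0.96 from protein-coding transcripts alone, and without its lead it was 0.52 with TMM scaling. The Casp2 gene sum from protein-coding transcripts alone was 2.55, which is the lead by itself. Low depth limits the transcripts under 20 reads, whose intervals span several units of log2.

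Counts over the table moved more. Transcripts above and below 1.4-fold (7275 and 1829) were 4052 and 3723 with TMM scaling, 4413 and 3330 without the dominant transcripts, 12603 and 6167 with no minimum, 2469 and 376 at 100 reads, 3092 and 675 at a ratio of 2, and 1631 and 365 by the 95% bound. Genes whose transcripts' intervals lay apart (355 of 3005) were 200 of 1299 at 50 reads. Counts at another minimum of reads come from another total, so they do not compare as shares. Related genes above 1.4-fold (30) were 18 with TMM scaling and 16 at 100 reads, and those below (2) were 8 with TMM scaling, 7 without the dominant transcripts, 1 at 100 reads and 5 by the transcript with the most reads. Their median (0.43) was 0.066 with TMM scaling and 0.12 without the dominant transcripts.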
